A study of Mus musculus with 12 samples.

Results

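The MHC class II genes described here are the 9 genes H2-Aa, H2-Ab1, H2-Eb1, Cd74, Ciita, H2-DMa, H2-DMb1, H2-Oa and H2-Ob, taken by name from the 22923 distinct gene symbols measured in mouse skeletal muscle. All 9 were found. RNA was sequenced from the leg muscle of 12 male FVB mice at 22 weeks of age, 3 in each of 4 groups, which were WT and KO mice fed either normal chow or a high fat diet that had been started at a younger age. They are called WT chow, WT high fat, KO chow and KO high fat below. The KO mice lack both Cryab, which encodes αB-crystallin, and Hspb2, its neighbour, in every tissue rather than in muscle alone. The sample titles call the WT animals Flox, and the genotype label of 6 samples conflicts with its title, so that groups follow the titles. The WT libraries held Cryab at 412 to 837 FPKM and the KO libraries at 0.845 to 1.75 FPKM, and each library therefore stood with its title.

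MHC class II molecules are cell surface dimers of an α and a β chain that show peptides from ingested protein to CD4 T cells. They are made chiefly by B cells, dendritic cells and macrophages, and in healthy muscle fibres are scarcely made at all, so that class II RNA in whole muscle is usually ascribed to immune cells lying between the fibres. In the endoplasmic reticulum the dimer is bound by the invariant chain (Cd74), in the endosome H2-DM exchanges the last fragment of that chain for a peptide, and H2-DO, which is best known from B cells, holds H2-DM back. The coactivator Ciita, which is drawn to a shared X box and Y box in their promoters, switches these genes on together, in some cells in answer to interferon-γ. FVB mice carry the H2q haplotype, which makes no functional Eα chain, so that the product of H2-Eb1 has no partner at the cell surface.

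In the GENCODE M21 annotation of GRCm38, which is the mm10 build named in the submitters' processing notes, 7 of the 9 genes lay within 224335 bp of chromosome 17, from 34092340 to 34316674. In the order along the chromosome these were H2-Oa, H2-DMa, H2-DMb1, H2-Ob, H2-Ab1, H2-Aa and H2-Eb1, and only H2-Aa was on the minus strand. Cd74 and Ciita were on other chromosomes. All 9 were annotated as protein coding, and the files give 1 value per gene symbol rather than values for transcripts or exons.

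Promoter sequence was available from RefSeq (GRCm38.p6) for 6 of the 9 genes, in 7 windows. In each, the 250 bases before the window's own start site were searched on both strands. That site can differ from the start in GENCODE. H2-Ab1, Cd74 and Ciita had no entry. The Y box letters TGATTGG were found in 5 of these 6 genes, against 7.23% of 32851 promoter windows on either strand. The X box was searched as GNAACNNATGATG, the consensus of 13 bases that stand shortly before the Y box of H2-Eb1, H2-DMb1 and H2-Ob and end in ATGATG. Its presence in these 3 genes is therefore given by how it was made, and it was found in 0.0487% of all windows. Both patterns together were found in 7 windows of 5 genes, namely the 3 class II genes, Nubp2 and Spsb3. The 2 patterns share no base in the 3 class II promoters, and neither pattern was found in the windows of H2-DMa. The searched bases of H2-DMa end at 34122831 and 34125517, inside the gene that GENCODE starts at 34119541. The bases before that annotated start were not searched. The stretches that hold the motifs are shown because they carry the feature by which these genes are known to be switched on together. Each is 130 bases from the gene's own strand, 5′ to 3′, and capitals mark the Y box and, where there are 2 runs of capitals, the X box before it. They lie at chr17:34287824-34287953 (minus strand), chr17:34305737-34305866, chr17:34153061-34153190, chr17:34238775-34238904 and chr17:34092249-34092378 (plus strand).
H2-Aa: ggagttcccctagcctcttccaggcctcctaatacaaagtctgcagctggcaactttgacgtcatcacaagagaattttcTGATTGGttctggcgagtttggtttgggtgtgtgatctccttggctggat
H2-Eb1: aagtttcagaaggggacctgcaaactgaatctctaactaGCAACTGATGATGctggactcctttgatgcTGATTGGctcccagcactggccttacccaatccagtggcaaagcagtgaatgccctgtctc
H2-DMb1: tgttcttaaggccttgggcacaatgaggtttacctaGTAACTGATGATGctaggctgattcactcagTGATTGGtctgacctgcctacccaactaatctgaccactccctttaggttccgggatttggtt
H2-Ob: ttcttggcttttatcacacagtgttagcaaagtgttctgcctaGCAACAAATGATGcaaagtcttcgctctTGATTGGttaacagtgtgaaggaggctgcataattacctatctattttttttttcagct
H2-Oa: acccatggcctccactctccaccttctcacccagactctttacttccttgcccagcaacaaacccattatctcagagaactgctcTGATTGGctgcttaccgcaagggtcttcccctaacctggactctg
The match of a motif is a description of the letters and was not tested as a binding site. The X pattern can match only sites that end in ATGATG. Its absence from H2-Aa, H2-Oa and H2-DMa therefore does not show that these genes lack an X box.

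Levels are given in FPKM, which scale fragments to transcript length and library size and allow genes to be compared per length. Depth in reads is unknown. In each of the 4 groups the mean FPKM of the members ran in the order Cd74, H2-Aa, H2-Ab1, H2-DMa, H2-DMb1, followed by H2-Eb1, H2-Oa, H2-Ob and Ciita in an order that changed from group to group. Within every library Cd74 was above H2-Aa and H2-Aa above H2-Ab1. The ranges of the neighbours H2-Aa and H2-Ab1 nevertheless overlapped in all 4 groups, and those of Cd74 and H2-Aa overlapped on normal chow only. H2-Ab1 and H2-DMa were apart in every group, as were H2-DMa and H2-DMb1. Among the last 4 genes, neighbours in the order overlapped in WT chow, KO chow and WT high fat. In KO high fat only H2-Ob and Ciita did.

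Before the comparisons, 3 of the 12 libraries have to be named, because the class II genes were highest there. These were WT chow replicate 2, KO chow replicate 1 and KO chow replicate 3. The summed level of 9 B cell markers (led by Cd79a, Cd79b and Pou2af1) was 60.3 to 70.1 FPKM in these 3 libraries and 0.288 to 6.0 FPKM in the other 9. That of 8 T cell markers (led by Cd28, Lck and Cd3g) was 37.8 to 41.6 FPKM against 1.62 to 5.02 FPKM, and that of 4 markers of lymph node stroma (led by Ccl19, Glycam1 and Cxcl13) was 54.6 to 91.6 FPKM against 2.14 to 4.47 FPKM. Dendritic cell markers (led by Cd209a, Zbtb46 and Ccr7) summed to 14.4 to 19.8 FPKM against 3.55 to 8.75 FPKM, but not every marker stood apart. The ranges of Cd209a, Zbtb46, Itgax and Clec9a overlapped between the 3 and the other 9 libraries. Those of Ccr7, Siglech, Flt3 and Xcr1 did not, and Ccr7 was at 5.15 to 7.13 FPKM against 0.277 FPKM or less. Macrophage markers (led by C1qa, C1qc and C1qb) summed to 156 to 239 FPKM in the 3 and 39.4 to 296 FPKM in the other 9, so that these did not stand apart, nor did endothelial markers (led by Pecam1, Cdh5 and Tie1) at 100.1 to 112 against 89.0 to 123.3 FPKM. Each group comparison is therefore given with and without the 3 libraries, whose part in the results was not otherwise tested. The muscle label fitted the high levels of Ckm and Mb, at no less than 13276 and 1552 FPKM in any library, although Myh4 was listed at 0 in all 12 libraries and Acta1 at 0 in 2.

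**Figure D1:**
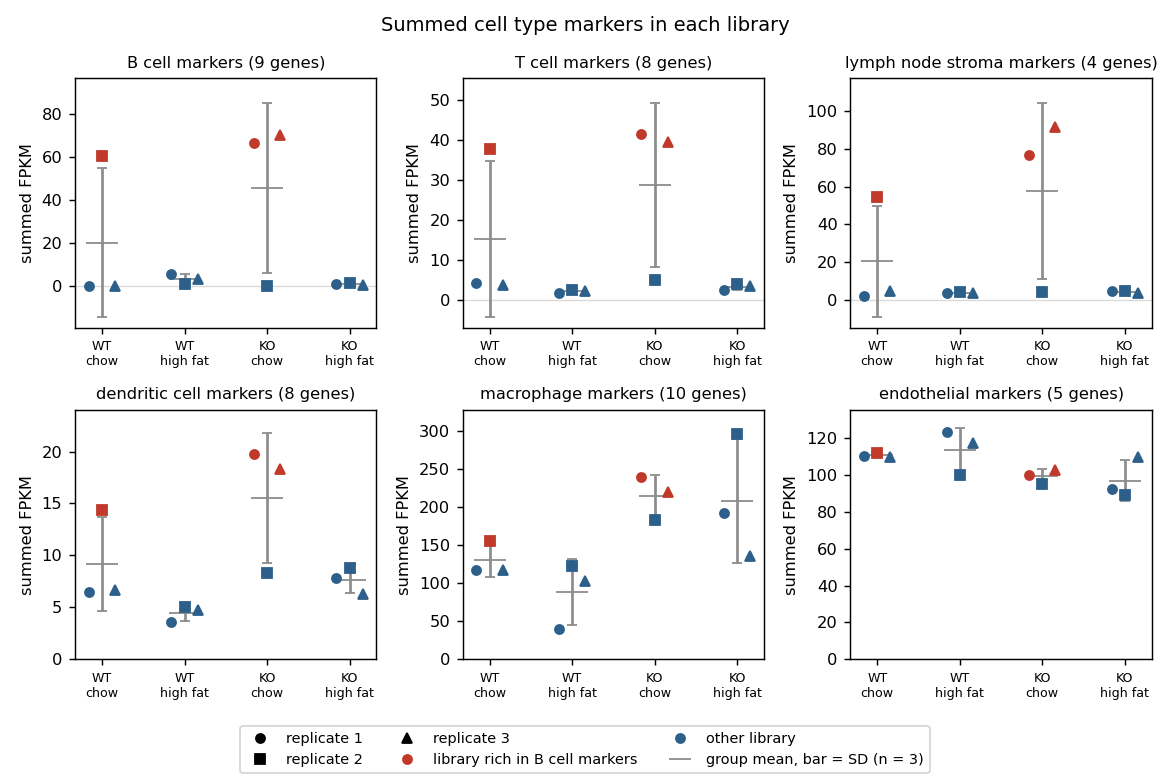
Summed FPKM of the markers of 6 cell types (y axis, linear) in the 12 libraries by group (x axis). Each point is a library, its shape the replicate number, red the 3 libraries rich in B cell markers and blue the other 9. Grey lines are group means with bars of 1 SD (n = 3). B cell markers reach 60.3 to 70.1 FPKM in the red points and at most 6.0 FPKM in the blue ones.

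The chains of the dimer I-A were the most abundant members after Cd74. H2-Aa, the α chain, was at 14.8, 77.3 and 20.4 FPKM in WT chow and at 11.6, 13.6 and 31.7 FPKM in WT high fat. In KO mice it was at 92.8, 27.8 and 87.6 FPKM on normal chow and at 31.3, 47.5 and 34.9 FPKM on the high fat diet. The 3 libraries rich in B cell markers held the 3 highest values, and among the others the KO libraries were at 27.8 to 47.5 FPKM and the WT libraries at 11.6 to 31.7 FPKM. H2-Ab1, the β chain, was at 12.6, 56.8 and 16.4 FPKM in WT chow, at 10.6, 12.9 and 25.3 FPKM in WT high fat, at 70.8, 20.3 and 68.1 FPKM in KO chow and at 27.0, 40.9 and 29.1 FPKM in KO high fat. It followed H2-Aa from library to library, and their ratio lay between 1.05 and 1.37 in all 12, with a coefficient of variation of 8.2%.

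H2-Eb1, the β chain of I-E, was low throughout. Its values were 0.641, 1.73 and 0.452 FPKM in WT chow, 0.513, 0.213 and 0.671 FPKM in WT high fat, 2.23, 0.656 and 2.04 FPKM in KO chow and 0.752, 1.28 and 0.673 FPKM in KO high fat. It stood at 0.0165 to 0.0508 of H2-Ab1 within a library. The α chain gene is listed under the symbol H2-Ea-ps, at 5.35 to 6.25 FPKM in the 3 libraries and 0.375 to 1.75 FPKM in the others. The reference genome is that of another haplotype, and the effect of strain differences in these polymorphic genes on alignment was not tested.

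Cd74, the invariant chain, is annotated at chr18:60803848-60812652 (plus strand) and was the highest member in every library. It was at 42.0, 195 and 56.3 FPKM in WT chow and at 34.1, 39.9 and 76.5 FPKM in WT high fat. In KO mice it was at 248, 67.8 and 241 FPKM on normal chow and at 81.5, 129.8 and 95.3 FPKM on the high fat diet. Cd74 was 2.41 to 2.94 times H2-Aa in all 12 libraries, with a coefficient of variation of 6.5%, so that the invariant chain and the I-A chains kept nearly the same proportion whether a library was rich in B cell markers or not.

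H2-DMa, a chain of the peptide exchanger DM, was at 5.99, 12.1 and 5.34 FPKM in WT chow, at 3.17, 3.86 and 5.23 FPKM in WT high fat, at 12.9, 7.20 and 14.2 FPKM in KO chow and at 7.04, 11.1 and 5.49 FPKM in KO high fat. It spread least of the members, by 4.46 times between the lowest and the highest library. The span of H2-DMa, introns included, overlaps that of Brd2 on the opposite strand by 3094 bp, and Brd2 was at 31.0 to 35.2 FPKM. Their exons were not compared, and without a stated use of strand reads of any that overlap could not be told apart. H2-DMb1, the partner of H2-DMa, was at 0.628, 5.31 and 1.67 FPKM in WT chow and at 0.826, 1.42 and 1.78 FPKM in WT high fat. In KO mice H2-DMb1 was at 5.41, 2.15 and 5.43 FPKM on normal chow and at 2.39, 2.99 and 2.41 FPKM on the high fat diet. Outside the 3 libraries, all 4 KO values of H2-DMb1 were above all 5 WT values, which among the members also held for Ciita and among all tested genes for 4.5%. The level of H2-DMb1 is uncertain, because its longest transcript is 94.6% identical to that of the neighbouring H2-DMb2 and 13.7% of its 100-base windows occur there unchanged. H2-DMb2 was at 10.2 to 14.3 FPKM in the 3 libraries and at 1.12 to 4.11 FPKM in the others.

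The chains of the DM inhibitor DO were low outside the 3 libraries. H2-Oa was at 4.61, 4.42 and 4.48 FPKM in the 3 libraries rich in B cell markers and at 0.256 FPKM or less in the other 9, with 0 listed in replicates 1 and 3 of WT chow and replicate 1 of KO high fat. H2-Ob was at 4.28, 4.70 and 4.63 FPKM in the same 3 libraries and at 0.0668 to 0.402 FPKM in the other 9. The mean of the DO chains was 0.465 to 0.511 of the mean of the DM chains in the 3 libraries and 0.0101 to 0.0878 in the other 9. A gene on the opposite strand, BC051537, spans the whole of H2-Oa, but it was at 0.0513 FPKM or less in every library.

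**Figure D2:**
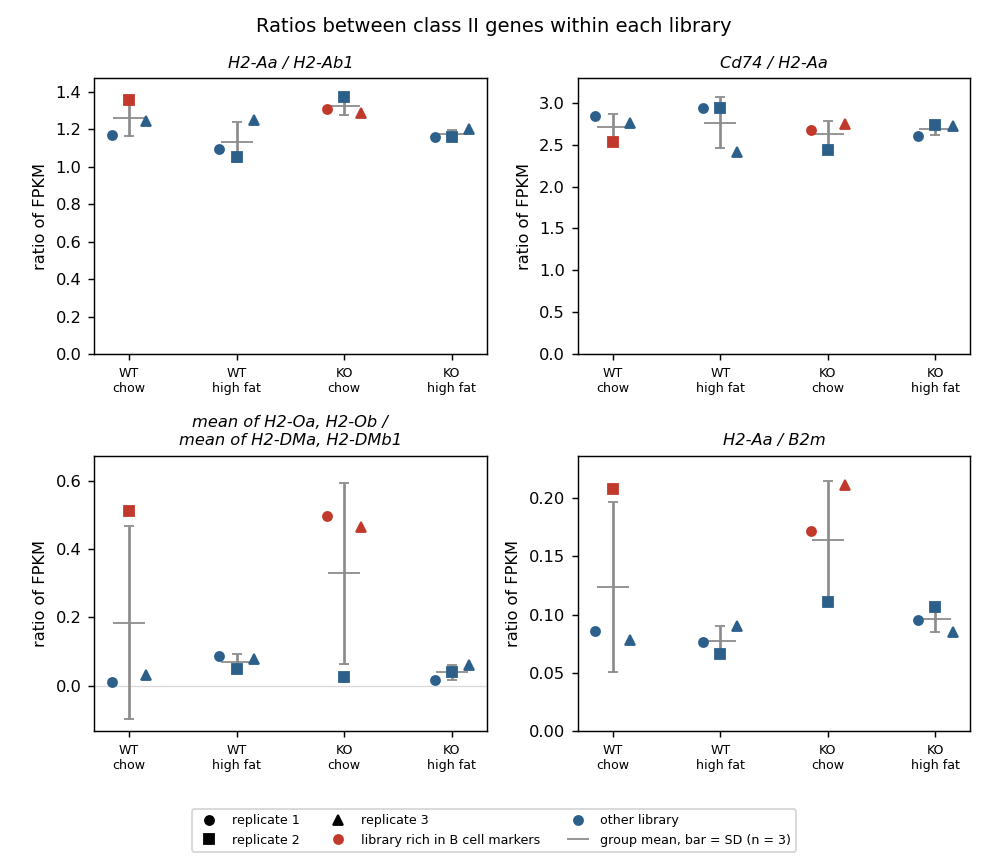
Ratio of FPKM between class II genes within each library (y axes, linear) by group (x axis), with points, colours, means and SD bars as in the plot of marker sums. H2-Aa to H2-Ab1 and Cd74 to H2-Aa stay within 1.05 to 1.37 and 2.41 to 2.94, whereas the ratio of the DO to the DM chains is 0.465 to 0.511 in the red points and at most 0.0878 in the blue ones. H2-Aa to B2m, the class I light chain, is 0.172 to 0.211 in red and 0.0659 to 0.111 in blue.

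Ciita, the coactivator, is annotated at chr16:10480059-10528418 (plus strand). It was at 1.97, 1.70 and 2.08 FPKM in the 3 libraries. In the other WT libraries it was at 0.0632 and 0.176 FPKM on normal chow and at 0.109, 0.157 and 0.200 FPKM on the high fat diet. In the other KO libraries it was at 0.252 FPKM on normal chow and at 0.276, 0.297 and 0.260 FPKM on the high fat diet. The 4 KO values were all above the 5 WT values, at a level below the 1 FPKM used as a filter. The span of Ciita, introns included, overlaps that of Dexi on the opposite strand by 25888 bp, and the counting was not stated to use strand. Dexi was at 22.9 to 42.2 FPKM. The exons of the pair were not compared, and reads of any that overlap could not be told apart.

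**Figure D3:**
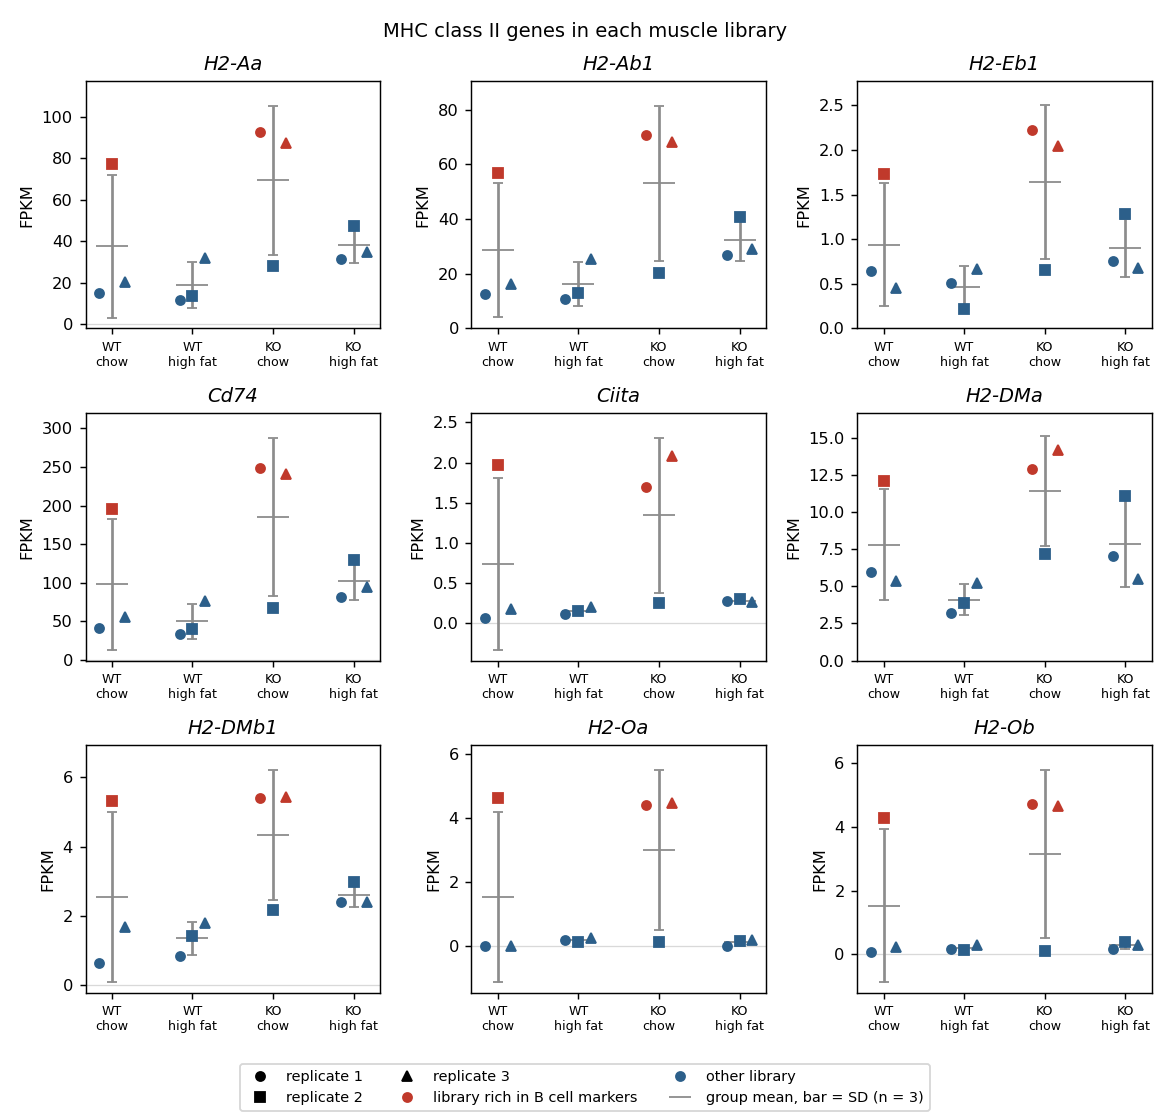
FPKM of each of the 9 class II genes (y axes, linear, each with its own range) in the 12 libraries by group (x axis). Each point is a library, its shape the replicate number, red the 3 libraries rich in B cell markers, with grey group means and bars of 1 SD (n = 3). For H2-Oa, H2-Ob and Ciita only the red points exceed 1 FPKM, while for Cd74 the blue points run from 34.1 to 129.8 FPKM.

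For the group comparisons limma was fitted to log2(FPKM + 1) of the 11945 genes that reached 1 FPKM in at least 3 libraries, with Benjamini-Hochberg adjustment over all 11945. The added 1 shrinks the fold change of genes with low values. All 9 members were tested, but 4 of them passed the filter because of the 3 libraries. Ciita, H2-Oa and H2-Ob reached 1 FPKM in no other library and H2-Eb1 in only 1 other, so that counts and medians over the 9 are descriptions. At an adjusted p under 0.05 none of the 9 was called in any of 7 comparisons, the 4 below, the interaction and the averages over diet and over genotype.

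The comparison of KO with WT mice on the high fat diet rested on none of the 3 libraries, apart from their share in the estimate of the spread. Here most class II genes were about 2 times higher in the KO. Cd74 averaged 102 ± 24.8 FPKM with the deletion and 50.2 ± 22.96 FPKM without it (SD, n = 3), a ratio of 2.04, H2-Aa 37.9 ± 8.47 and 19.0 ± 11.1 FPKM, and H2-Ab1 32.3 ± 7.48 and 16.3 ± 7.92 FPKM, a ratio of 1.99. The ratio was 1.93 for both H2-DMa and H2-DMb1, 1.94 for H2-Eb1 and 1.79 for Ciita. The DO chains were both near 0, with H2-Ob at 0.292 ± 0.117 in KO and 0.195 ± 0.0779 FPKM in WT and H2-Oa, the only member with a lower mean in KO, at 0.111 ± 0.097 and 0.186 ± 0.0679 FPKM. In whole muscle, more cells of a type and more RNA per cell cannot be told apart.

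The KO range lay wholly above the WT range on the high fat diet for 6 of the 9, namely H2-Ab1, H2-Eb1, Cd74, Ciita, H2-DMa and H2-DMb1, while 13% of all tested genes did so in this direction. H2-Aa missed this by a single pair of libraries, at 31.3 FPKM in the lowest KO and 31.7 FPKM in the highest WT library. H2-Eb1 was included by as little, at 0.6733 and 0.6710 FPKM in these places. None of the 9 passed the adjusted threshold in limma, against 0.109% of all genes (13 of 11945), and 1 of the 9, H2-DMa, had an unadjusted p under 0.05, against 9.79% of all genes in this direction. The log2 fold change was 0.77 ± 0.33 (SE) for H2-DMa with an adjusted p of 0.27 in limma, 1.07 ± 0.60 for Cd74 with 0.41, 1.08 ± 0.61 for H2-Aa with 0.42 and 1.02 ± 0.58 for H2-Ab1 with 0.41. It was 0.63 for H2-DMb1, 0.37 for H2-Eb1, 0.15 for Ciita, 0.11 for H2-Ob and -0.096 for H2-Oa. The median over the 9 members was 0.63, beside -0.01 over all genes tested. When the 3 libraries were left out of the estimate of the spread, the fold changes stayed as they were, 6 of the 9 had an unadjusted p under 0.05 against 11.2% of all genes, and the adjusted p of Cd74 was 0.15, still above the threshold.

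Macrophage markers were also higher in KO high fat than in WT high fat. Their sum was 192, 296 and 136 FPKM in KO high fat, against 39.4, 122.7 and 102 FPKM in WT high fat. In the same libraries Cd74 was at 81.5, 129.8 and 95.3 FPKM and at 34.1, 39.9 and 76.5 FPKM. The order of the libraries within each group was thus not the same. Of 9 macrophage markers tested, 8 were higher at an unadjusted p under 0.05, against the 9.79% of all genes, and 0 at an adjusted one in limma, with a median log2 fold change of 1.18. Cd68, a lysosomal protein of macrophages, was at 20.5, 40.1 and 20.7 FPKM in KO high fat, against 3.11, 7.54 and 11.6 FPKM in WT high fat. The 8 dendritic cell markers summed to 7.84, 8.75 and 6.27 FPKM in KO high fat, against 3.55, 5.08 and 4.76 FPKM in WT high fat. Of the 4 tested, 1 was higher at an unadjusted p under 0.05, against the 9.79% of all genes, and 0 at an adjusted one in limma. Their median log2 fold change was 0.09. All 9 B cell markers had a log2 fold change below 0, from -0.72 to -0.007 with a median of -0.16. Their sum was 1.15, 1.81 and 0.617 FPKM in KO high fat, against 6.0, 1.08 and 3.45 FPKM in WT high fat. None of the 9 had an unadjusted p under 0.05 in the limma fit of all 12 libraries, beside 770 of 11945 genes in the lower direction. The 3 libraries rich in these markers enter the estimate of the spread in that fit. They passed the filter only because of the 3 libraries, so that their shared sign is a description. The part of macrophage or dendritic cell number in the class II levels was not tested.

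On normal chow the KO and WT ranges overlapped for all 9 members, while 8.15% of all genes were apart in the higher direction. The KO to WT ratio of means was 1.90 for Cd74, 1.85 for H2-Aa and H2-Ab1, and 1.46 for H2-DMa. These means rest on 2 libraries rich in B cell markers among the KO and 1 among the WT mice, and the SD was 102 FPKM about the KO mean of 186 FPKM for Cd74. None was called at an adjusted p under 0.05 in limma, against 0.0586% of all genes, and none had an unadjusted p under 0.05, where 6.73% of all genes were higher and 9.93% lower by that measure. The log2 fold change of Cd74 was 1.03 ± 0.60 (SE) with an adjusted p of 0.37 in limma. It was 1.06 for H2-Aa, 0.98 for H2-Ab1, 0.44 for H2-Eb1, 0.52 for H2-DMa, 0.75 for H2-DMb1, 0.85 for H2-Oa, 0.79 for H2-Ob and 0.50 for Ciita. The median over the members was 0.79, beside -0.03 over all genes. Without the 3 libraries, with 1 KO and 2 WT libraries left, the value of H2-Ob turned to -0.045 and the other 8 members stayed above 0, as did 43.8% of all genes.

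The high fat diet was set against normal chow within each genotype, and here most members' direction turned on the 3 libraries, all of which were on chow. In WT mice the ratio of high fat to chow means was 0.512 for Cd74, 0.506 for H2-Aa and 0.121 for H2-Oa. Among the 9 members only H2-DMa was lower without overlap, at 4.09 ± 1.05 against 7.82 ± 3.73 FPKM (SD, n = 3 each), as were 6.88% of all genes. Its log2 fold change was -0.73 ± 0.33 (SE), with an adjusted p of 0.59 in limma. The other log2 fold changes were -0.71 for Cd74 and H2-Aa, -0.56 for H2-Ab1, -0.36 for H2-Eb1, -0.42 for Ciita, -0.38 for H2-DMb1, -0.59 for H2-Oa and -0.68 for H2-Ob. H2-DMa was also the only member with an unadjusted p under 0.05, against 3.7% of all genes in this direction, and none was called at the adjusted threshold, against 0.1% of all genes. The median over the members was -0.59, beside -0.01 over all genes. Without the library of WT replicate 2 on chow, 5 of the 9 turned to values above 0, between 0.047 for Ciita and 0.24 for H2-Oa, and 46.3% of all genes were above 0. The other 4 stayed below 0, at -0.41 for H2-DMa, -0.087 for H2-Eb1, -0.045 for Cd74 and -0.017 for H2-Aa. H2-DMa stayed below 0 without any single library, at -0.93 to -0.41. All 8 T cell markers had a log2 fold change below 0 here, but without the 3 libraries 6 of the 8 were above 0. In the fit of all 12 libraries 1 of them was called, against the 0.1% of all genes. This was Cd28, the costimulatory receptor, singled out after its values were seen. It was at 3.78, 3.61 and 2.99 FPKM on chow and at 0.386, 1.30 and 0.907 FPKM on high fat, a log2 difference of -1.28 whose adjusted p was 0.018 in limma, or 0.14 without the 3 libraries, and was not high in those 3 alone.

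In KO mice the ratio of high fat to chow means was 0.55 for Cd74, 0.546 for H2-Aa and 0.0368 for H2-Oa, and the ranges of the 2 diets overlapped for all 9 members, while 6.14% of all genes were apart in the lower direction. None was called at an adjusted p under 0.05 in limma, as for all genes (0%), and H2-Oa alone had an unadjusted p under 0.05, against 4.73% of all genes in this direction. The log2 fold change was -1.54 for H2-Oa, -1.35 for H2-Ob, -0.77 for Ciita, -0.70 for H2-Aa, -0.67 for Cd74, -0.53 for H2-Ab1, -0.50 for H2-DMb1, -0.48 for H2-DMa and -0.43 for H2-Eb1. The median over the members was -0.67, beside 0.03 over all genes. When the 3 libraries were left out, a single KO library remained on chow, which was assumed to vary like the other groups, and 8 of the 9 log2 fold changes turned above 0, against 53.2% of all genes, with 0.56 for Cd74 and 0.62 for H2-Ab1. H2-Oa stayed below 0.

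**Figure D4:**
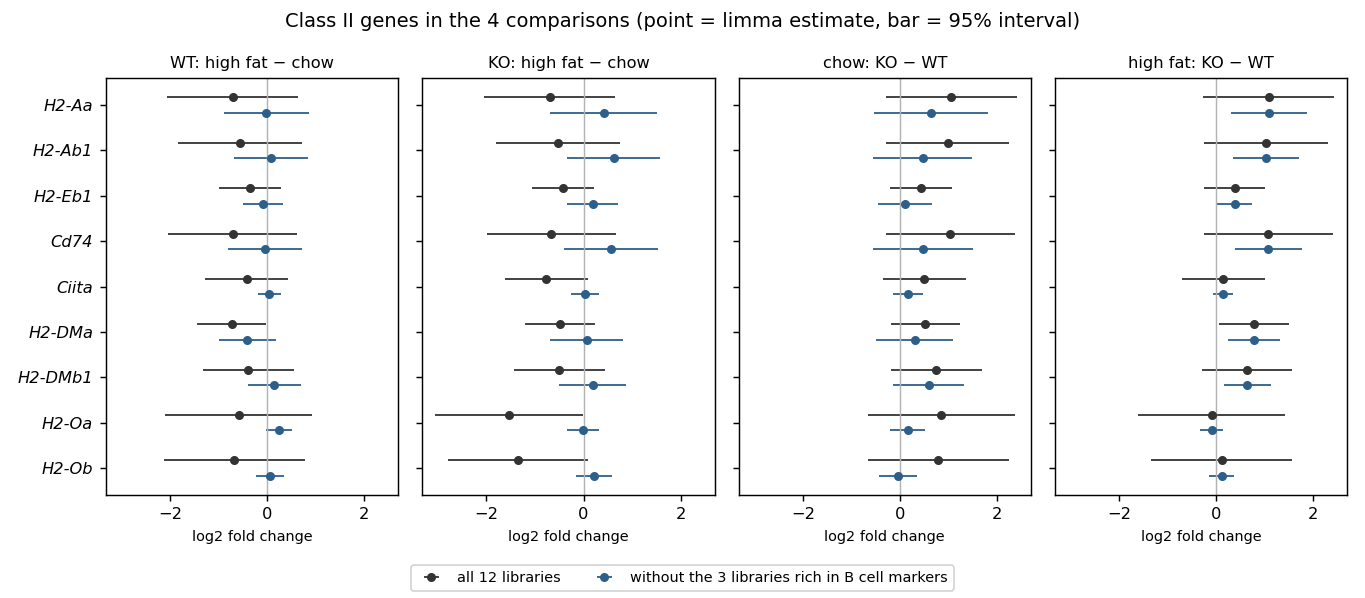
Log2 fold change of each class II gene (x axis, log2 scale) in the 4 comparisons, as the limma estimate (point) with its 95% interval (bar). Black is the fit of all 12 libraries and blue the fit without the 3 libraries rich in B cell markers. In both diet panels most blue points lie to the right of the black ones and near or above 0, while for KO against WT on the high fat diet the points of both fits coincide and the blue intervals are narrower.

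In the KO to WT difference averaged over both diets, 5 of the 9 were higher at an unadjusted p under 0.05, namely H2-DMa, Cd74, H2-Aa, H2-Ab1 and H2-DMb1, against 13.1% of all genes in this direction. None passed at the adjusted threshold in limma, against 0.862% of all genes (103 of 11945). The log2 fold change was 0.65 ± 0.23 (SE) for H2-DMa with an adjusted p of 0.12 in limma, 1.05 ± 0.43 for Cd74 with 0.15 and 0.69 ± 0.30 for H2-DMb1 with 0.17. It was 1.07 for H2-Aa, 1.0 for H2-Ab1, 0.41 for H2-Eb1, 0.45 for H2-Ob, 0.38 for H2-Oa and 0.32 for Ciita. The median over the members was 0.65, beside -0.02 over all genes. This comparison depended on single libraries. Without WT replicate 2 on chow, H2-DMb1 was called, at 0.96 with an adjusted p of 0.048 in limma, as were 336 of the 11945 genes. Without KO replicate 2 on chow Cd74, H2-Ab1 and H2-DMa were called, at 1.36, 1.29 and 0.79, as were 1208 of the 11945 genes. The first of these fits left no WT library rich in B cell markers. The second left on chow only KO libraries that were rich in them, at a sum of 66.6 and 70.1 FPKM, against 0.288 FPKM in KO chow replicate 2. The part of this imbalance in the calls was not tested. Without the 3 libraries none was called, against 0.0921% of all genes, the same 5 genes kept an unadjusted p under 0.05, against 7.51% of all genes, and their log2 fold changes lay between 0.54 for H2-DMa and 0.86 for H2-Aa.

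The interaction asks whether the diet difference was larger in one genotype than in the other. None of the 9 members was called at the adjusted threshold in limma and 0% of all genes were. None had an unadjusted p under 0.05, against 3.55% of all genes in the higher and 2.7% in the lower direction. The interaction was -0.95 on the log2 scale for H2-Oa, which had the smallest adjusted p of the members in limma, 0.91, then -0.68 for H2-Ob, -0.35 for Ciita and 0.25 for H2-DMa, and lay between -0.11 for H2-DMb1 and 0.040 for Cd74 in H2-Aa, H2-Ab1 and H2-Eb1 as well. Without the 3 libraries, with 1 KO library left on chow, 7 of the 9 interaction values were above 0 and 2 below. Their median was 0.27, beside -0.07 in the fit of all 12 libraries, where 4 were above 0 and 5 below. For the diet averaged over both genotypes, 1 of the 9, H2-DMa, was lower at an unadjusted p under 0.05, against 5.94% of all genes in that direction, none was called after adjustment in limma, and 0.0586% of all genes were. The log2 values were -1.06 for H2-Oa, -1.01 for H2-Ob, -0.70 for H2-Aa, -0.69 for Cd74, -0.61 for H2-DMa, -0.60 for Ciita, -0.55 for H2-Ab1, -0.44 for H2-DMb1 and -0.39 for H2-Eb1. Their median was -0.61. Without the 3 libraries, with 1 KO library left on chow, 8 of the 9 average diet values were above 0. The median was then 0.14, beside 0.002 over all genes.

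Other genes of the class II pathway were taken from a list of 26 tested genes that act before or after the dimer. None was called in the comparison of KO with WT mice on the high fat diet in limma, and 4 of the 26 were higher at an unadjusted p under 0.05, beside 9.79% of all genes. These 4 were Ctss, Ctsl, Lgmn and Ctsb, which encode lysosomal proteases, and enrichment was not tested. Ctss, the protease that trims the invariant chain in B cells and dendritic cells, was at 30.5, 56.6 and 24.2 FPKM in KO high fat, against 5.98, 12.4 and 17.7 FPKM in WT high fat. Ctsl, at 90.6, 135 and 107 against 59.8, 60.8 and 79.5 FPKM, had the smallest adjusted p of the list in limma, 0.076. Ctsb, Ifngr2 and Jak1, with Ctsl the highest of the list, were at 113 to 199, 30.6 to 59.6 and 27.8 to 42.7 FPKM over all 12 libraries. Rfx5, Rfxap and Rfxank, which hold Ciita at the X box, ran within 1.61 to 3.68, 7.78 to 11.3 and 1.58 to 2.40 FPKM over all 12 libraries. Their spread was thus far smaller than that of Ciita, which differed by 33.0 times between the lowest and the highest library.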

How the data were processed

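The authors deposited 1 FPKM value per gene symbol for each of 12 libraries of mouse leg muscle. The unit was read from the values, and the submitters' processing notes name TopHat 2.0.8b, Cuffdiff 2.1.1 and the build mm10. Rows of a repeated symbol were reduced to the one with the highest mean. The total FPKM was 499509 to 691621 in 11 libraries and 10656382 in KO chow replicate 3, where 1 microRNA gene, Mir324, held most of it. Depth is unknown, and p-values measure the spread between these samples.

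Groups follow the titles. Values were taken to log2(FPKM + 1), with a filter of at least 1 FPKM in at least 3 libraries, and fitted with limma 3.58.1 (R 4.3.3) as 4 group means with an intensity trend and 8 residual degrees of freedom, adjusted by Benjamini-Hochberg over 11945 genes at 0.05. The fit was tested on simulated data, with changes placed only in genes whose spread was below the median. That test does not measure the power for genes as variable as the members. Ratios, ranges and motif searches used Python 3.11.15, pandas 2.3.3 and Biopython 1.88. The motifs were searched in RefSeq windows and overlaps in GENCODE M21.

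All 9 members are named in every comparison. Of the pathway and class I lists, genes past the threshold or else the 4 with the highest mean are named, of marker lists the 3 with the highest mean and those at 0 in all libraries, and the 10 genes most like the members by Pearson correlation. Other names were added after their values were seen. 1 marker of the B cell list is not reported here and was left out of its sums and counts. Members and lists were chosen with earlier results of these data known. Alternatives were a pseudocount of 0.1, no filter, no trend, only the 2 groups compared, size factors, the replicate number as a block and each library left out. Leaving out the 3 libraries rich in B cell markers was chosen after seeing the data.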

Additional observations from a re-analysis of the deposited data

How the results depend on the processing

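None of the 9 members was called in any of the 7 comparisons under a pseudocount of 0.1, no filter, size factors, no intensity trend or the replicate number as a block, or in the 4 of them fitted with only the 2 groups compared, and these kept the direction of every member's fold change in the 5 comparisons of diet and genotype recomputed. The block gave 0 called members, with a smallest adjusted p of 0.18 for the average genotype difference. The numbers gave no clear sign of pairing. As deviations from their group means, same-numbered libraries correlated at -0.81 to 0.39. At most 3 of 6 samples of a comparison correlated best with their own number. Deviations from means of 3 libraries cannot exclude a pairing.

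Leaving out each library in turn gave 0 to 3 called members for the average genotype difference and 0 for the other comparisons. In WT mice it moved the log2 diet difference from -0.69 to 0.047 for Ciita, -0.97 to 0.073 for H2-Ab1, -0.83 to 0.15 for H2-DMb1, -1.0 to 0.24 for H2-Oa and -1.09 to 0.060 for H2-Ob. Without the 3 libraries rich in B cell markers, the diet difference in WT mice was 0.047 for Ciita, 0.073 for H2-Ab1, 0.15 for H2-DMb1, 0.24 for H2-Oa and 0.060 for H2-Ob. In KO mice it was 0.56 for Cd74, 0.030 for Ciita, 0.41 for H2-Aa, 0.62 for H2-Ab1, 0.065 for H2-DMa, 0.19 for H2-DMb1, 0.19 for H2-Eb1 and 0.22 for H2-Ob. H2-Ob turned to -0.045 for genotype on normal chow. The leave-one-out reversals all came without WT chow replicate 2. The cause was not tested.

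The number of all genes called moved more. For genotype on the high fat diet it was 13, and 24 without a filter, 5 with the block, 8 with only those groups and 4 to 82 with each library left out. For the average genotype difference it was 103, and 42, 40 and, without the 3 libraries, 11, and 10 to 1208 with each library left out. Leaving each out gave 1 to 32 for diet in WT mice, 0 to 10 for diet in KO mice, 4 to 14 for genotype on normal chow, 1 to 18 for average diet and 0 to 1 for the interaction. For diet in WT mice it was 12, and 7 with the block, 3 with only those groups and 1 without the 3 libraries. For diet in KO mice it was 0, and 6 without a filter, 7 with only those groups and 2 without the trend. For genotype on normal chow it was 7, and 4 with the block or only those groups, for the average diet difference 7, and 1 with the block or without the 3 libraries, and for the interaction 0, and 1 without a filter. With 3 libraries a group and unknown depth, values under 1 FPKM are the least certain.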

Other observations

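The 10 genes whose log2(FPKM + 1) most resembled the mean of the members over the 12 libraries were Shisa5, Ccl5, Tlr1, H2-DMb2, Cd37, Btg1, Itgb7, Arhgap30, Coro2a and Tspan32, with a Pearson correlation of 0.983 to 0.991. The points share the 3 libraries rich in B cell markers, and the correlations are a description. Over the other 9 libraries none of these was among the 10 most alike, which were Akr1c13, Serpinb9, Klhl5, Vat1, Eef1a1, H2-D1, Ifi27l1, Tnfrsf1a, H2-K1 and Dock2, at 0.973 to 0.984. H2-D1 and H2-K1 are heavy chains of MHC class I, which shows peptides from within the cell to CD8 T cells.

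The highest class I genes were B2m, H2-D1, H2-K1 and H2-Q4, at 151 to 541, 122 to 438, 25.6 to 131 and 15.4 to 52.8 FPKM over the 12 libraries. On the high fat diet the KO range lay wholly above the WT range for 3 of the 12 class I genes, beside 13% of all tested genes. H2-K1, 1 of these 3, was at 76.1, 107.7 and 84.2 FPKM in KO and at 25.6, 39.0 and 70.5 FPKM in WT mice. The ranges of B2m overlapped, at 327 to 444 FPKM in KO and 151 to 350 FPKM in WT mice on that diet. Of the 12 class I genes, 3 were higher at an unadjusted p under 0.05 there, beside 9.79% of all genes, none passed after adjustment in limma, and the median log2 fold change was 0.44, beside -0.01 over all genes. Averaged over both diets, 1 of 9 macrophage and 1 of 4 dendritic cell markers tested were called in limma, beside 0.862% of all genes. The median log2 difference was 0.92 over the macrophage and 0.47 over the dendritic cell markers, the lowest of which was at -0.0006. The called ones were Emr1, the macrophage surface protein F4/80, and Cd209a, a lectin of dendritic cells and macrophages. They were higher in KO mice by 0.89 and 0.79 on the log2 scale, with an adjusted p of 0.042 and 0.046 in limma. Without the 3 libraries the values were 0.86 and 0.74, with an adjusted p of 0.32 and 0.35 in limma.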
